A study of Bos taurus with 8 samples.

Results

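OTX2, ZIC2, ZIC5, ETV1, ETV4, ETV5, FGF5, POU3F1 and SALL2, a set of 9 genes used as markers of the formative and primed epiblast, were followed in bovine embryonic stem cells (bESCs). They were chosen by name from the deposited count table, in which all 9 were found among 32637 genes with values. This choice, and that of the gene lists below, was made with earlier results of these data known. The data were 8 RNA-seq libraries from 4 XX bESC lines, lettered A, C, D and E. Each line was sequenced once on MEF, a feeder layer of mouse embryonic fibroblasts, and once in feeder-free conditions on vitronectin. All cultures were kept in 5% O2 in NBFR medium, which contains FGF2 and the WNT inhibitor IWR-1. RNA was taken at passages 15 to 17 on MEF and, after the same lines had been moved off feeders, at passages 20 to 22, so that effects of passage, feeder cells and matrix cannot be told apart. Activin A appears in the medium code of every sample title, but in the methods of the study it is an addition to feeder-free culture. If the media differed in this way, its effect cannot be told apart from the others either. Counts on MEF may also hold, or have had removed, reads from the mouse cells. Each line was derived from a whole blastocyst produced in vitro, at the early or the full stage, and the records do not tie a line letter to a stage.

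Pluripotency is passed through as a series of states. In mice, naive cells correspond to the epiblast before implantation. Formative cells have left the naive state and become competent for germ layer and germ cell induction. Primed cells correspond to the epiblast shortly before gastrulation and depend on FGF/ERK and Activin/NODAL signalling. OTX2 and POU3F1 (also OCT6) are homeodomain factors that lead cells out of the naive state, ZIC2 and ZIC5 are zinc finger factors that replace naive regulators at enhancers, and SALL2 is a zinc finger factor of the SALL family used as a marker of the primed state. ETV1, ETV4 and ETV5 form the PEA3 group of ETS factors and are transcribed in response to FGF/ERK signalling, and FGF5 is a ligand that marks the early post-implantation epiblast in mice.

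Total counts on genes were 44268717 to 54296425 on MEF and 49671478 to 102351560 in feeder-free conditions, where line D gave the highest total and the other 3 lines at most 51320214. Values are given as CPM, counts relative to the library total and scaled by TMM, a factor that corrects for library composition. CPM is not divided by gene length, so levels are compared between libraries and never between genes. A count of 3, taken as the limit below which a gene was not detectable, corresponded to 0.0293 to 0.0720 CPM, and these limits cover counting error only. In bulk RNA, fewer cells that express a gene and less RNA per cell cannot be told apart. The labelled cell type was checked first: POU5F1 averaged 2047 ± 245 CPM over the MEF libraries and 1849 ± 84.4 CPM over the feeder-free ones (SD, n = 4 each), and SOX2, NANOG, SALL4, LIN28A and LIN28B were abundant in all 8 libraries.

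Among the 8 members with enough counts to be tested, ETV4 was the only one that passed the unpaired test, and it was higher in feeder-free cells. POU3F1 and OTX2 were lower in feeder-free cells in 4 of 4 lines and passed once the libraries were paired by line. ZIC2 was lower and did not overlap between conditions, but its change stayed below the fold threshold. ZIC5, SALL2, ETV1 and ETV5 passed neither fit, and FGF5 was not detectable in either condition. A gene was called where edgeR's quasi-likelihood test, adjusted over 15744 genes by Benjamini-Hochberg, gave a P-value under 0.05 and the change reached 1.5-fold. In that test 1 of 8 members was called higher and 0 lower, against 0.724% of all tested genes called higher and 1.00% called lower. At an unadjusted P-value under 0.05 there were 4 members (OTX2, ZIC2, ETV4 and POU3F1), against 21.6% of all tested genes. DESeq2 called 1 member higher and 2 lower, against 4.41% and 3.28% of all genes. When the libraries were paired by adding the line letter as a replicate block, 1 member was called higher and 2 lower, against 5.52% and 4.53% of all genes. The median log2 fold change of the 8 members was -0.12, against 0.006 for all tested genes.

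**Figure D1:**
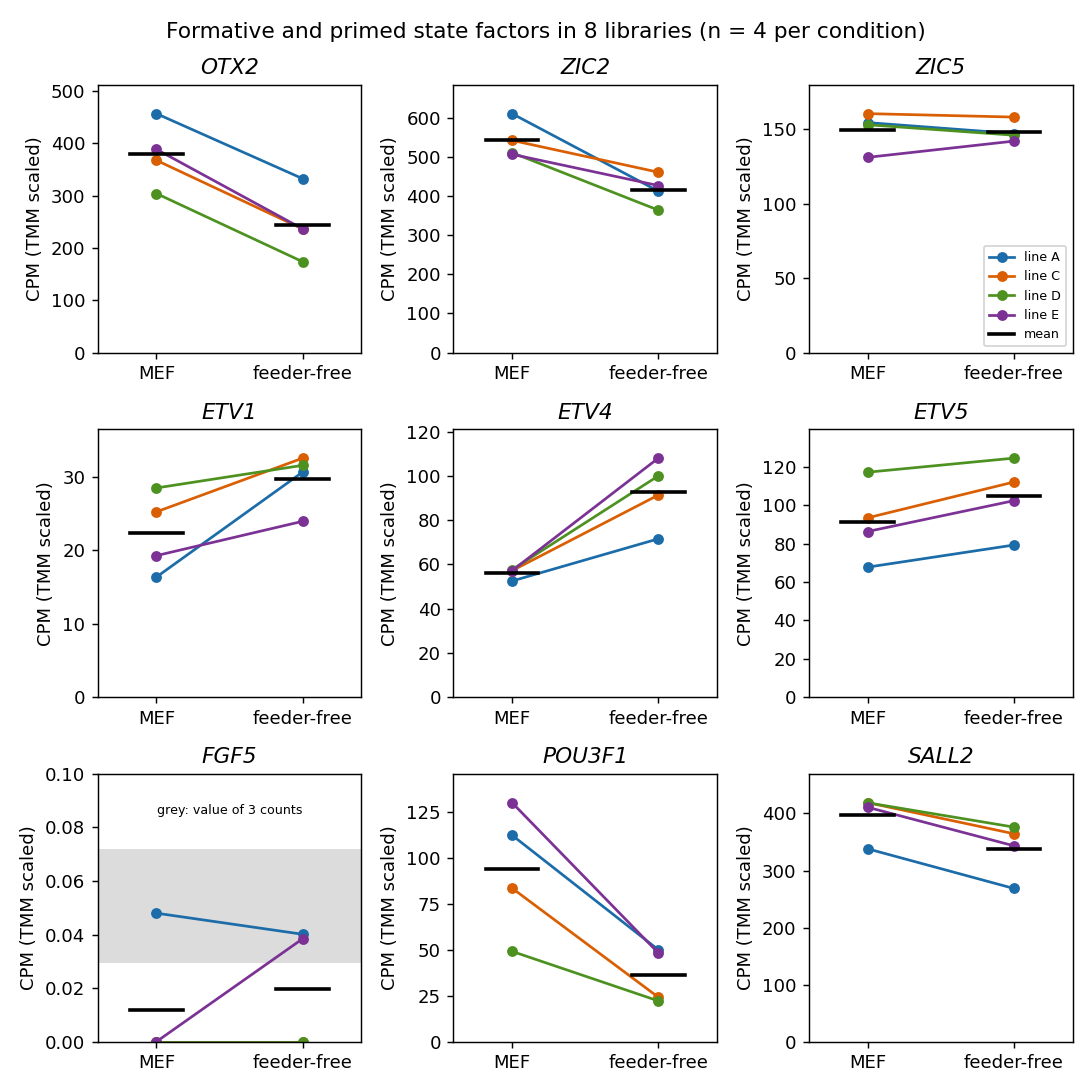
Expression of the 9 genes in each library, as TMM-scaled CPM on an axis that starts at 0, on MEF and in feeder-free conditions. Points are single libraries, lines join the same bESC line and black bars are the means of 4 libraries; the grey band in the FGF5 panel spans the value of 3 counts across libraries. POU3F1 and OTX2 drop in all 4 lines, ETV4 climbs in all 4, and FGF5 never exceeds 2 counts.

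OTX2, on chromosome 10 from 69215035 to 69225042 (RefSeq annotation of ARS-UCD2.0), was at 457, 368, 304 and 389 CPM in lines A, C, D and E on MEF. In feeder-free conditions the same lines gave 333, 237, 174 and 237 CPM. Every line was lower without feeders, but the highest feeder-free value, of line A, lay above the MEF value of line D, so the groups overlapped. The means were 380 ± 63.0 and 245 ± 65.6 CPM (SD, n = 4 each), 35.5% lower without feeders. The log2 fold change was -0.63 with a standard error of 0.21 and a 95% confidence interval of -1.09 to -0.17, and it did not pass edgeR's quasi-likelihood test after adjustment over all genes (adjusted p = 0.118). In the paired fit OTX2 was called lower, its log2 fold change being -0.66 (adjusted p = 0.00495, edgeR's quasi-likelihood test). Within lines the log2 ratio of feeder-free over MEF ran from -0.81 in line D to -0.46 in line A.

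POU3F1, on chromosome 3 from 107920730 to 107922878, had the largest fold change of the members. On MEF it was at 112, 83.6, 49.2 and 130 CPM in lines A, C, D and E. Without feeders it was at 50.0, 24.2, 22.2 and 48.3 CPM in the same order. Lines A and E were the highest in both conditions, and the groups touched only where the feeder-free value of line A exceeded the MEF value of line D. The means were 93.9 ± 35.4 and 36.2 ± 15.0 CPM (SD, n = 4 each), 61.5% lower without feeders. The log2 fold change of -1.38, with a standard error of 0.36 and a 95% confidence interval of -2.18 to -0.57, gave an adjusted p of 0.0728 in edgeR's quasi-likelihood test. In the fit with the replicate block POU3F1 was called lower, with an adjusted p of 0.000678 in edgeR's quasi-likelihood test, and line ratios ran from -1.79 to -1.15 on the log2 scale.

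The PEA3 factors are transcriptional outputs of FGF/ERK signalling, and each was higher in feeder-free cells in 4 of 4 lines, but only ETV4 was called. Differences between the changes of the 3 factors were not tested. ETV4, on chromosome 19 from 43447252 to 43462786, was at 52.5, 57.2, 57.6 and 57.2 CPM on MEF in lines A, C, D and E. It was at 71.6, 91.4, 100 and 108 CPM in feeder-free conditions. The MEF values lay within a narrow range, every feeder-free value lay above all of them, and line A was the lowest in both conditions. ETV4 rose 1.65-fold, with means of 56.1 ± 2.42 and 92.8 ± 15.7 CPM (SD, n = 4 each). The log2 fold change was 0.73, with a standard error of 0.14, a 95% confidence interval of 0.42 to 1.03 and an adjusted p of 0.0399 in edgeR's quasi-likelihood test. The replicate block gave 0.71 (adjusted p = 0.00548, edgeR's quasi-likelihood test). In the unpaired fit the adjusted p of ETV4 was 0.0752 to 0.122 without any 1 library other than that of line A in feeder-free conditions. ETV4 stayed called in the paired fit without any 1 line.

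ETV5, on chromosome 1 from 81135305 to 81194599, was at 67.8, 93.5, 117 and 86.4 CPM on MEF and at 79.3, 112, 125 and 102 CPM in feeder-free conditions, in lines A, C, D and E. Each line was higher without feeders, by 0.09 to 0.26 on the log2 scale, but the spread between lines was larger than that step and the groups overlapped. The log2 fold change of 0.20 (95% confidence interval -0.23 to 0.63) had an adjusted p of 0.604, and of 0.195 with the replicate block, in edgeR's quasi-likelihood test. ETV1, on chromosome 4 from 22097662 to 22196624, was at 16.4, 25.3, 28.5 and 19.3 CPM on MEF. Without feeders it was at 30.7, 32.6, 31.6 and 24.0 CPM. It too was higher in 4 of 4 lines, most in line A, with overlap between conditions. Its log2 fold change of 0.41 (95% confidence interval -0.02 to 0.84) gave an adjusted p of 0.26, and of 0.0741 with the replicate block, in edgeR's quasi-likelihood test. The intervals of ETV1 and ETV5 each held a fold change of 1.5, the threshold of a call, and that of ETV5 ended below the estimate of 0.73 for ETV4.

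ZIC2 and ZIC5 are neighbours on chromosome 12, where 9537 bases and 0 annotated genes lie between them. ZIC2, from 76738408 to 76742927, was at 610, 542, 511 and 506 CPM in lines A, C, D and E on MEF and at 412, 461, 364 and 427 CPM in feeder-free conditions. All 4 feeder-free libraries lay below all 4 MEF libraries. The means were 542 ± 48.0 and 416 ± 40.2 CPM (SD, n = 4 each), 23.3% lower without feeders, at a log2 fold change of -0.38 with a standard error of 0.13 and an adjusted p of 0.12 in edgeR's quasi-likelihood test. Pairing by line brought the adjusted p to 0.0375, but the fold change remained under 1.5. ZIC5, from 76719474 to 76728870, was at 154, 161, 153 and 131 CPM on MEF and at 147, 158, 146 and 142 CPM in feeder-free conditions. The ranges of ZIC5 lay within one another and line C was the highest in both. Its log2 fold change was -0.01 with a 95% confidence interval of -0.25 to 0.23, which excludes a change of 1.5-fold in either direction, and its sign turned without scaling beyond library size. The difference between the changes of ZIC2 and ZIC5 was not tested.

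Groups that did not overlap were seen for 1 member in each direction, ETV4 higher and ZIC2 lower, against 6.21% of all tested genes higher and 8.35% lower in this way. Same-direction changes in 4 of 4 lines were seen for 3 members higher (ETV1, ETV4 and ETV5) and 4 lower (OTX2, ZIC2, POU3F1 and SALL2), against 20.2% and 20.7% of all tested genes.

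SALL2, on chromosome 10 from 25641299 to 25655396, was at 338, 419, 419 and 411 CPM on MEF and at 269, 364, 376 and 343 CPM in feeder-free conditions, in lines A, C, D and E. Line A was the lowest in both conditions and every line was lower without feeders, with overlap between the groups. The log2 fold change of -0.23 (95% confidence interval -0.55 to 0.09) passed neither the unpaired fit (adjusted p = 0.396) nor the paired one (adjusted p = 0.126) of edgeR's quasi-likelihood test. FGF5, on chromosome 6 from 94954669 to 94979368, had 2 counts in line A and 0 in the other 3 lines on MEF, and 2 counts each in lines A and E and 0 in lines C and D without feeders. No library reached 3 counts, so the ligand was not detectable in either condition at this depth, and it was removed by the filter on low counts before testing.

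**Figure D2:**
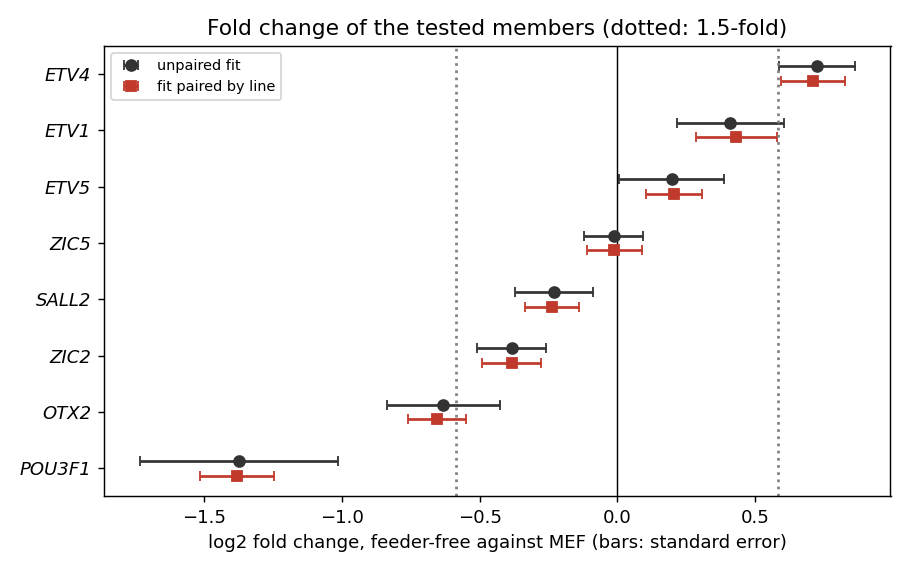
Log2 fold change of feeder-free against MEF for the 8 tested members, from the unpaired fit (circles) and the fit with the line as a replicate block (squares), with standard errors as bars and dotted lines at 1.5-fold. ETV4 at 0.73 and POU3F1 at -1.38 are the extremes, ZIC5 sits at zero, and the block shortens the bars most for POU3F1, OTX2 and ETV5.

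The lines themselves differed in some of these genes. The F test over the line terms, with condition in the model, called 3 of 8 members at an adjusted P-value under 0.05 (edgeR's quasi-likelihood test), against 11.8% of all tested genes. These were POU3F1 (adjusted p = 0.00677), OTX2 (adjusted p = 0.0381) and ETV5 (adjusted p = 0.0415), and each also passed with RLE size factors, with no filter, with at least 10 counts in every library and with limma-voom. ETV4 (adjusted p = 0.407), ETV1 (0.263), SALL2 (0.194), ZIC2 (0.637) and ZIC5 (0.679) did not pass.

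Line D stood at opposite ends for these genes. Relative to the mean log2 CPM of its condition, line D was at -0.30 on MEF and -0.46 without feeders for OTX2, and at -0.84 and -0.60 for POU3F1. The same line was at 0.39 and 0.27 for ETV5. Line A was the reverse for OTX2 and ETV5, at 0.28 and 0.48 for OTX2 and at -0.40 and -0.38 for ETV5. The order of the lines was the same in both conditions for OTX2 (A, E, C, D) and for ETV5 (D, C, E, A), although lines C and E lay within 0.01 of each other for OTX2 without feeders. POU3F1 was high in lines A and E and low in line D in both conditions, at 0.56 and 0.52 for line E. The highest line exceeded the lowest by 2.65 times on MEF and 2.25 times in feeder-free conditions for POU3F1, and by 1.22 and 1.11 times for ZIC5.

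**Figure D3:**
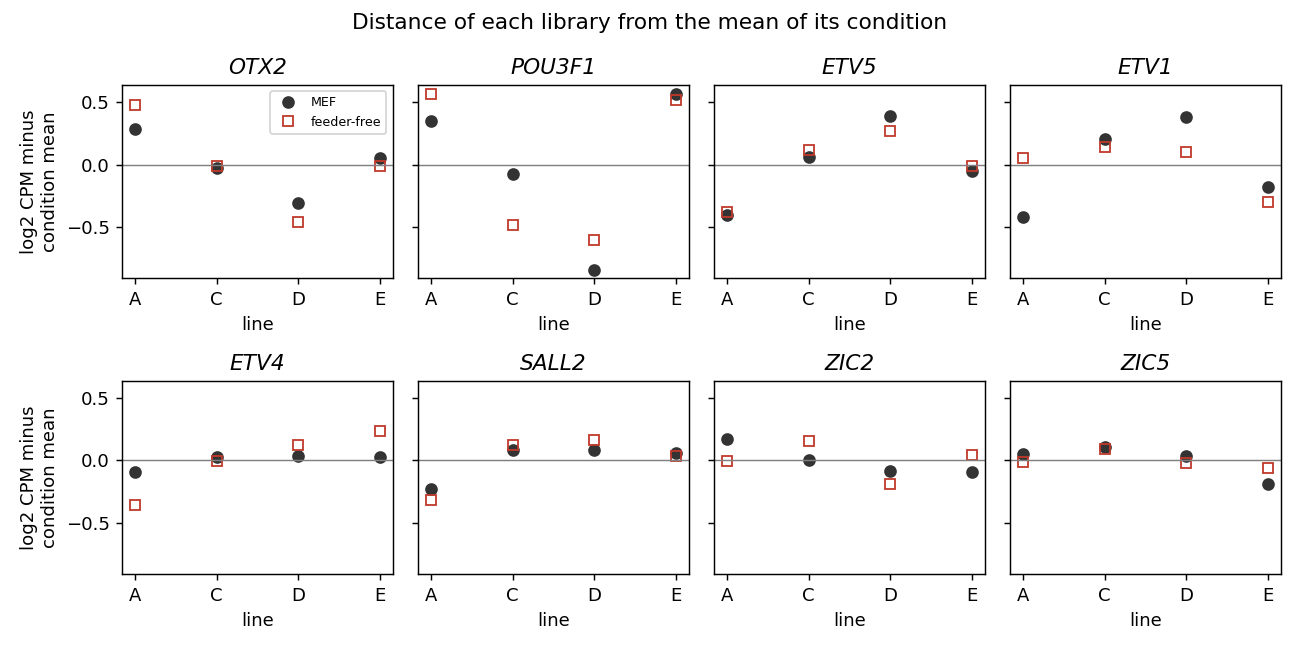
Log2 CPM of each library minus the mean of its condition for the 8 tested members, by line on MEF (filled circles) and in feeder-free conditions (open squares). Both symbols of line D lie below zero for OTX2 and POU3F1 and above it for ETV5, and those of line A lie on the other side; for ZIC2 and ZIC5 they stay within 0.2 of zero.

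The genes of the route that leads to the PEA3 factors were examined by position in that route. Of 6 tested FGF ligands and receptors, 0 were called higher and 1 lower, FGF8, a ligand of the gastrulating embryo, which fell from 5.51 ± 2.91 CPM to 1.41 ± 0.435 CPM (SD, n = 4 each; log2 fold change -1.96, adjusted p = 0.0466, edgeR's quasi-likelihood test). FGF4 and FGF10 were left out by the filter on low counts. Paired by line, 2 were called higher and 2 lower, against 5.52% and 4.53% of all genes. FGF2, the ligand also supplied in the medium, was at 8.16, 9.19, 17.0 and 10.7 CPM on MEF and at 19.8, 21.6, 36.3 and 22.1 CPM without feeders, without overlap, at an adjusted p of 0.0621 unpaired and 0.00132 paired in edgeR's quasi-likelihood test. The receptor gene FGFR4 had a log2 fold change of 1.06 (adjusted p = 0.0759 unpaired and 0.0287 paired) and FGFR3 one of -0.72 (adjusted p = 0.0567 and 0.0042), from edgeR's quasi-likelihood test. FGF2 shares its locus with NUDT6, and whether counting used strand is not stated.

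Of 14 RAS/ERK transducers, 0 were called higher and 1 lower, with a median of -0.15. The called gene was FRS2, the adaptor that links FGF receptors to RAS, which fell from 123 ± 15.2 CPM to 73.0 ± 9.48 CPM (SD, n = 4 each; log2 fold change -0.75, adjusted p = 0.0388, edgeR's quasi-likelihood test) and overlaps 2 other annotated genes. SOS1 (-0.40) and BRAF (-0.36) were among the next largest values and were not called. Of 6 genes listed as repressors, co-repressors or turnover factors of the PEA3 group, 0 were called higher and 1 lower. CIC (capicua), the HMG-box repressor of ETV1, ETV4 and ETV5 that ERK signalling relieves, was at 106, 104, 110 and 123 CPM on MEF and at 68.1, 75.2, 72.7 and 76.2 CPM without feeders in lines A, C, D and E. Its groups did not overlap, and its log2 fold change of -0.60 with a standard error of 0.10 gave an adjusted p of 0.0331 in edgeR's quasi-likelihood test. ATXN1L (-0.19), ERF (0.17) and COP1 (0.09) passed neither fit.

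Of 16 genes that respond to ERK or restrain it, 1 was called higher and 0 lower, with a median log2 fold change of 0.89 against 0.006 for all genes. SPRY4, a Sprouty inhibitor of receptor tyrosine kinase signalling, was at 33.1, 47.9, 94.6 and 50.0 CPM on MEF and at 122, 147, 283 and 205 CPM without feeders. It did not overlap between conditions and rose by 1.75 on the log2 scale, with a standard error of 0.36 and an adjusted p of 0.0471 in edgeR's quasi-likelihood test. In the paired fit 9 were called higher, namely SPRY4, DUSP5, DUSP6, IL17RD, EGR1, FOSL1, IER3, PHLDA1 and MYC, and 1 lower, CCND1. Unpaired, the largest of the others were DUSP5, an ERK phosphatase, at 1.91 (adjusted p = 0.113), EGR1, an immediate early gene, at 1.43 (adjusted p = 0.0565), and FOSL1, at 1.42 (adjusted p = 0.0509), in edgeR's quasi-likelihood test. In 9 of 16 genes every line was higher without feeders, against 20.2% of all tested genes. The 9 called in the paired fit, not all of them the same genes, stand against 5.52% of all genes. IER3 and MYC were called but were higher in only 3 of 4 lines. The list was chosen with earlier results of these data known, so neither count is independent of that choice. The unpaired calls of FGF8, FRS2, CIC, SPRY4, SALL1, SOX11 and ESRRB, like that of ETV4, were lost without most single libraries: ESRRB alone kept its call without the MEF library of line C, all but CIC kept theirs without the library of line A in feeder-free conditions, and none kept it without any other library.

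Differences between lines were found in the same group. The F test over lines called 5 of the 16 (edgeR's quasi-likelihood test, against 11.8% of all genes), among them SPRY4 (adjusted p = 0.00371), DUSP6 (adjusted p = 0.00808) and DUSP5 (adjusted p = 0.0115). Line D was at 0.85 and 0.66 for SPRY4, at 0.61 and 0.80 for DUSP6 and at 1.46 and 1.14 for DUSP5, on MEF and without feeders. Line A was at -0.66 and -0.56, -0.38 and -0.81, and -0.67 and -1.12 in the same order. For these genes lines D and A lay on the same sides of the mean as for ETV5. This also held for EGR1 (adjusted p for lines 0.00735, edgeR's quasi-likelihood test), at 0.47 and 0.17 in line D and -0.55 and -0.28 in line A. The remaining called gene, IL17RD (adjusted p for lines 0.0236, edgeR's quasi-likelihood test), was at 0.44 and 0.45 in line A, on the opposite side from ETV5, and lowest in line E.

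**Figure D4:**
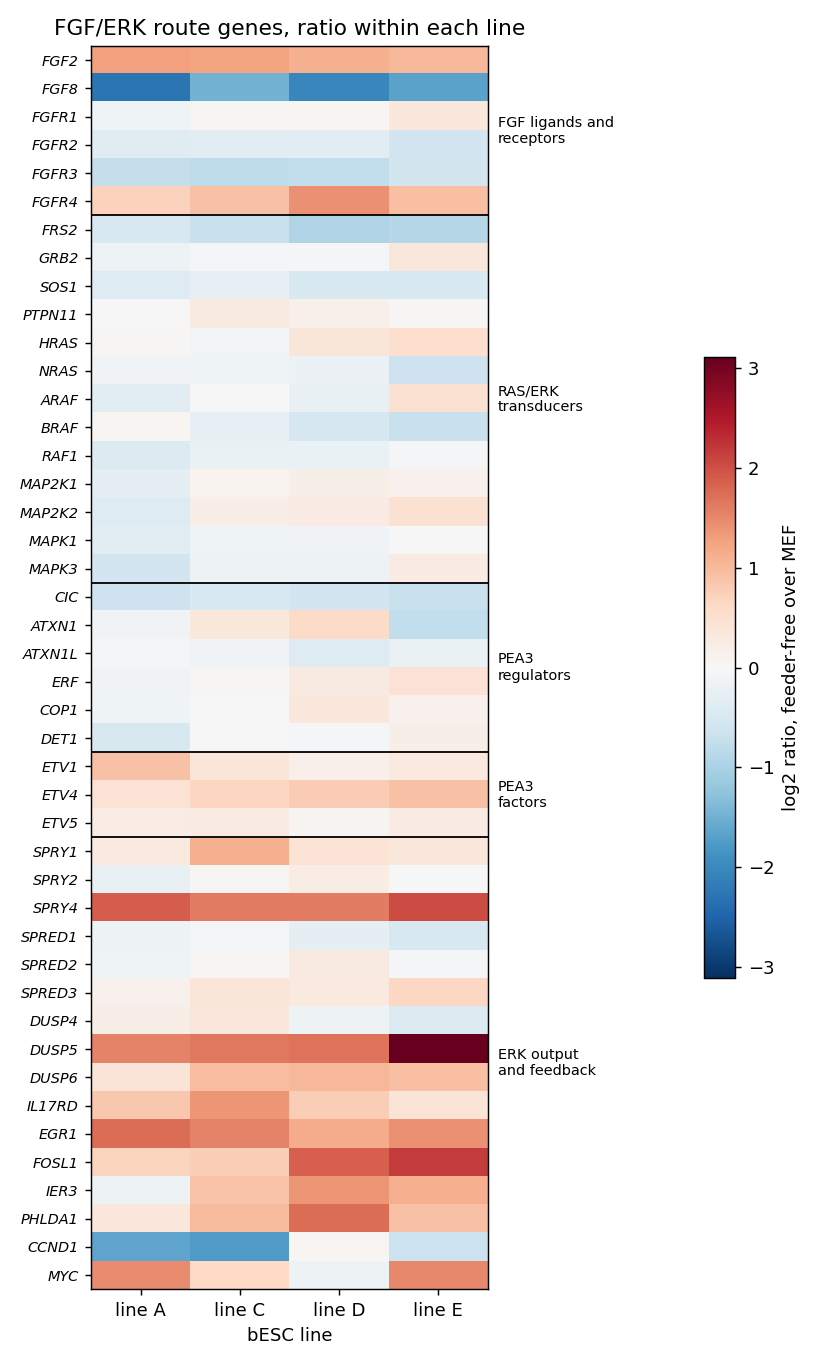
Log2 ratio of feeder-free over MEF within each line (columns) for genes of the FGF/ERK route that were tested and are reported here (rows), grouped as ligands and receptors, transducers, regulators of PEA3 factors, the PEA3 factors ETV1, ETV4 and ETV5, and output and feedback genes. SPRY4, DUSP5, EGR1 and FOSL1 are positive in all 4 lines, FGF8, FRS2 and CIC negative in all 4.

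Of 15 listed paralogues of the members, 10 were tested, 8 of which had log2 fold changes below 0 (7784 of 15744 over all genes), with a median of -0.57, and 1 was called lower and 0 higher. SALL1 was the called gene (log2 fold change -0.71, adjusted p = 0.0471, edgeR's quasi-likelihood test) and overlaps another annotated gene. Paired by line, SALL1, SALL3, ZIC1 and ZIC4 were called lower, 4 of 10 against 4.53% of all genes, and 0 were called higher. ZIC1 was at 4.90, 21.3, 8.19 and 10.1 CPM on MEF and at 0.682, 3.16, 0.449 and 3.96 CPM without feeders (log2 fold change -2.44, adjusted p = 0.101 unpaired and 0.00319 paired, edgeR's quasi-likelihood test). ZIC1 and ZIC4 overlap in the annotation, so their counts may not be separate. SALL4 had a log2 fold change of -0.58, just short of 1.5-fold. OTX1 (-0.55), ETV2 (0.81), ETV3 (-0.15) and ETV6 (-0.09) passed neither fit. POU3F4 and FGF6 had 0 counts in all libraries, which allows up to 3 counts or 0.0720 CPM in any of them, and POU3F2, POU3F3 and FGF4 were left out by the filter.

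Among 14 tested genes also used for the formative or primed epiblast, 0 were called higher and 2 lower, with a median of -0.04. SOX11, a SOXC factor of the epiblast and early neural plate, was at 666, 662, 600 and 641 CPM on MEF and at 428, 397, 389 and 408 CPM without feeders (log2 fold change -0.66, adjusted p = 0.0331, edgeR's quasi-likelihood test). FGF8, given above, was the other. With the replicate block CRIPTO (TDGF1), the co-receptor of NODAL, was called higher (log2 fold change 2.42, adjusted p = 0.00209, edgeR's quasi-likelihood test). DNMT3B, the de novo methyltransferase of primed cells, had a log2 fold change of 0.07 and UTF1 one of 0.67 (adjusted p = 0.11), neither of which was called. Lines differed in 5 of the 14, against 11.8% of all tested genes. Among these was NODAL, at 72.2, 32.6, 127 and 19.8 CPM on MEF and at 60.6, 32.2, 119 and 26.5 CPM without feeders (adjusted p for lines 0.000238, edgeR's quasi-likelihood test). Line D was the highest for NODAL in both conditions.

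Of 9 tested naive state factors, 0 were called higher and 1 lower, with a median of 0.37. ESRRB, an orphan nuclear receptor of the naive network, was at 16.4, 6.43, 13.1 and 25.1 CPM on MEF and at 2.49, 1.58, 2.33 and 2.56 CPM without feeders (log2 fold change -2.77, adjusted p = 0.0331, edgeR's quasi-likelihood test). The groups did not overlap. KLF4 (1.33), KLF5 (2.18) and ZFP42 (1.36) were not called in the unpaired fit and were called higher with the replicate block, from means of 0.860, 3.77 and 3.10 CPM on MEF. These 3 of 9 stand against 5.52% of all genes called higher with the block.

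By pattern over the 8 libraries, measured as the root mean square difference of log2 CPM centred on each gene's mean, the genes nearest to POU3F1 were SEMA5A at 0.193, FUT9 at 0.247 and H3C6 at 0.26, where POU3F1 itself was 0.878 from a flat profile. Those nearest to OTX2 were LOC112442708 at 0.102, INAFM2 at 0.105 and PGK1 at 0.115, with OTX2 at 0.429 from a flat profile. ETV4 was nearest to ACP6, TUBB2A and LOC516108 at 0.1 to 0.104, and ETV5 to SHROOM3, CD2AP and KBTBD8 at 0.0706 to 0.0838. The nearest genes were EXOC1, ATP13A3 and MYSM1 for ETV1, RTN4IP1, KCTD21 and HNRNPUL1 for ZIC2, NAT9, WAC and CDC23 for ZIC5, and BAG6, SCAF1 and ACO1 for SALL2.

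Several other markers moved with the condition beside these genes. The summed level of 6 pluripotency markers was 4252 CPM on MEF and 3557 CPM in feeder-free conditions on average, all 6 had log2 fold changes below 0, with a median of -0.32, and 0 were called in either fit. Of these 6 markers, 5 were lower in 4 of 4 lines (20.7% of all tested genes), 5 had an unadjusted P-value under 0.05 (21.6% of all genes, either direction) and 4 did not overlap between conditions (8.35% of all genes). SALL4 passed on the adjusted p (0.0426 unpaired and 0.00614 paired, edgeR's quasi-likelihood test) and missed only the fold threshold. Neuroectoderm markers summed to 126, 54.5, 192 and 127 CPM on MEF and to 121, 95.8, 337 and 150 CPM without feeders in lines A, C, D and E. NES made up the largest part of these sums on average, without correction for gene length. PAX6, HES5, NEUROG2 and EN2 stayed at or below 0.33 CPM. Of 6 neuroectoderm markers tested, 4 had log2 fold changes below 0, with a median of -0.81, so the sum and the median differ in sign. The paired fit called 2 lower (ZIC1 and ZIC4) and 0 higher, against 4.53% and 5.52% of all genes. Fibroblast markers summed to 514, 613, 578 and 539 CPM on MEF and to 285, 911, 1309 and 442 CPM without feeders. COL1A1 made up the largest part of these sums on average, again without correction for gene length. Of 9 fibroblast markers tested, 0 were called in the unpaired fit. The paired fit called 2 higher and 1 lower, against 5.52% and 4.53% of all genes. The 2 higher were COL3A1 (log2 fold change 2.53, adjusted p = 0.00654, edgeR's quasi-likelihood test) and POSTN (2.77, adjusted p = 0.0317, edgeR's quasi-likelihood test). POSTN had 0, 4, 32 and 0 counts on MEF and 0, 36, 268 and 12 without feeders in lines A, C, D and E. COL1A2, called lower, was at 0.679 to 4.64 CPM on MEF and at most 0.414 CPM without feeders. Markers of primitive streak and mesoderm (6.80 and 11.6 CPM), hypoblast and endoderm (9.35 and 5.27 CPM) and trophoblast (2.13 and 2.07 CPM) were low in sum in both conditions, and 0 of them were called in the unpaired fit. The paired fit called EOMES, a streak marker, higher (log2 fold change 1.61, adjusted p = 0.0307, edgeR's quasi-likelihood test) and GATA2, a trophoblast marker, lower (-1.45, adjusted p = 0.0447), the latter without overlap between conditions. CDX2 was at 0 in all 8 libraries, and TBXT, MESP1, GATA4 and ELF5 were near 0. The part of these markers in the results for the members was not tested.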

How the data were processed

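RNA-seq of 4 bESC lines on MEF and in feeder-free conditions (8 libraries) was used. The authors trimmed reads with Trimmomatic, aligned them to ARS-UCD2.0 with STAR, removed optical duplicates (Picard) and low quality alignments, counted with featureCounts (Subread 1.6.2 in the submitters' processing notes) and, for bESCs on MEF only, removed what a sample of MEF alone gave on the bovine genome, per the study's methods. They deposited raw counts per gene, and whether these hold that removal is not given in the sources used here. Strand and pair counting are not given in the sources used here. The methods name RNeasy kits for RNA, the records Trizol.

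Of 32640 genes, 3 without values were left out, and 0 columns were unused. Counts were fitted with edgeR 4.0.16 in R 4.3.3 (filterByExpr, TMM, glmQLFit and glmQLFTest on condition, Benjamini-Hochberg over 15744 genes), and fits were tested on simulated data. Log2 CPM used a prior count of 2. Line letters pair the libraries, since the same lines were used: deviations of a line's 2 libraries correlated at 0.582 (A), 0.557 (C), 0.664 (D) and 0.421 (E), those of different lines at -0.523 to 0.249. Deviations from a condition mean cancel within each condition. Where correlations within lines are positive, those between lines are therefore lowered by construction. Libraries within a condition all differed beyond sampling noise (12 pairs, lowest chi-square per degree of freedom 40.8). Members and lists were chosen with earlier results of these data known. Named were all members, every listed gene called, the up to 4 largest changes of a list with fewer than 2 calls, the paralogues, and the 3 genes nearest to each member in pattern. SOX3 was not found by name. Coordinates are those of RefSeq. Alternatives included DESeq2 1.42.0 and limma-voom (limma 3.58.1). Sequences and exon lengths were not used here. Each line is 1 biological replicate. Some listed genes are counted in their list but are not reported here by name.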

Additional observations from a re-analysis of the deposited data

Results flagged for a closer look

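Over 44 sets of 4 libraries examined for a single library far from the others, 3 stood out, where chance gives about 2.2. Line D in feeder-free conditions had a total of 102351560 counts, and the next highest was 51320214. ETV4 was lowest in the MEF library of line A, at a log2 CPM of 5.715, with the other 3 at 5.838 to 5.849. SALL2 was lowest in the MEF library of line A as well, at 8.401 against 8.683 to 8.711. Without the feeder-free library of line D, 0 members were called in either direction in the unpaired fit (edgeR's quasi-likelihood test), and without the line in both conditions the paired fit called ETV4 higher and OTX2 and POU3F1 lower.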

How the results depend on the processing

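Members called lower numbered 0 in the unpaired fit and 2, OTX2 and POU3F1, both under DESeq2 and with the replicate block. Other listed genes called higher, 1 in the unpaired fit, numbered 0 with no scaling beyond library size, 6 with at least 10 counts in every library, 15 under DESeq2 and 15 with the block. Those called lower, 6 in the unpaired fit, numbered 2 with no scaling, 2 with no filter and 11 with the block. Of all genes, 114 were higher and 158 lower. With no scaling 91 were lower, with no filter 73 and 97, with the strict filter 199 were higher, under DESeq2 695 and 517, and with the block 869 and 713. Leaving out 1 library at a time gave 0 to 1 members higher, 0 to 1 lower, 0 to 5 listed genes higher, 0 to 7 lower, 0 to 259 of all genes higher and 0 to 231 lower. OTX2 was called when line A in feeder-free conditions was left out (log2 fold change -0.82). With the block and without each line in turn, members remained at 1 higher and 2 lower. The sign of ZIC5 turned with no scaling (0.026), with no filter (0.0065) and among the fits without 1 library (-0.075 to 0.021). The block changed no call of the other members. The cause of these shifts was not tested, and no other member changed sign under any alternative. A comparison of levels per exon length was not run, since exon lengths were not used here.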
